A study of Mus musculus with 4 samples.

Results

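The genes described here build and anchor microtubule organizing centres: the centrosome, the centriole at its core, the γ-tubulin ring complex and the augmin complex. They were chosen by symbol alone, as every gene named *Cep* with a number, *Cetn*, *Tubg* or *Tubgcp*, *Haus*, or *Odf2*, together with *Pcnt*, *Plk4*, *Sass6*, *Stil*, *Cntrob*, *Cntln*, *Nin*, *Ninl*, *Pcm1*, *Cdk5rap2* and *Cenpj*. The rule took 70 of the 26022 genes in the table, and used no measured value. Earlier results of these data were known when the rule and the lists of roles, markers and related genes were chosen. Embryos of the outbred ICR strain were taken at the late 2C stage, after 16 h in culture with 200 μM Mdivi-1 or without it. Mdivi-1 is a small molecule used to inhibit DRP1, the GTPase that divides mitochondria. There were 2 libraries of Mdivi-1-treated embryos and 2 of control embryos, each group being given as 8 to 10 embryos. RNA was amplified by Smart-Seq2, which copies full-length polyadenylated RNA without marking its strand or its single molecules. The labels name no engineered allele. Whether replicate libraries stem from different litters is not given, so p-values measure only the spread between these libraries, which may be technical.

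In most animal cells, centrioles recruit a matrix of pericentrin and CDK5RAP2, on which γ-tubulin ring complexes start new microtubules. A new centriole forms when the kinase PLK4, with STIL and SASS6, builds a cartwheel beside an old one. Mouse oocytes lose their centrioles, and mouse cleavage embryos assemble spindles from acentriolar microtubule organizing centres that hold pericentrin and γ-tubulin, until centrioles form again later before implantation. Augmin brings γ-tubulin ring complexes to the sides of existing microtubules, and so amplifies the microtubules of a spindle. Appendages of the mother centriole, centriolar satellites and capping proteins serve mainly the anchoring of microtubules and the growth of a cilium.

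Promoters are shown for *Cep55*, *Odf2* and *Plk4*, with higher counts in Mdivi-1-treated embryos, and for *Haus6*, with lower counts, because these are the 4 genes of the set past an adjusted p of 0.05 by DESeq2. Of the 70 genes, 57 were matched to RefSeq promoter windows of GRCm38.p6, which run from 250 bases before a start to 50 bases after it. The windows are chr19:38054734-38055033 on the plus strand for *Cep55* (the first of its 2 starts), chr2:29889470-29889769 on the plus strand for *Odf2* (the first of its 4 starts), chr3:40799701-40800000 on the plus strand for *Plk4* and chr4:86612006-86612305 on the minus strand for *Haus6*. Each is written 5′ to 3′ on the strand of its gene, and capitals mark matches to the motifs searched.
Cep55: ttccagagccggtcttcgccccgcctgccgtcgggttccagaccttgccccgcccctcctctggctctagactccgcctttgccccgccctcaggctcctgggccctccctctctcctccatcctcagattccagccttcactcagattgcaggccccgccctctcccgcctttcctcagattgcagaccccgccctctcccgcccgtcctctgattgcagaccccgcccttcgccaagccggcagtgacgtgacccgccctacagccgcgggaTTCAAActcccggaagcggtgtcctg
Odf2: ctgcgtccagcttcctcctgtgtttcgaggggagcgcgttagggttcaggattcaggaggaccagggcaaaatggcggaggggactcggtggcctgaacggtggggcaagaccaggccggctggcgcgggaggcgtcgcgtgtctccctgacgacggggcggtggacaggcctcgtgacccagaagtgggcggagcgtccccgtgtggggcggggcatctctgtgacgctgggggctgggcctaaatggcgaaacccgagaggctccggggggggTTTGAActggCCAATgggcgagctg
Plk4: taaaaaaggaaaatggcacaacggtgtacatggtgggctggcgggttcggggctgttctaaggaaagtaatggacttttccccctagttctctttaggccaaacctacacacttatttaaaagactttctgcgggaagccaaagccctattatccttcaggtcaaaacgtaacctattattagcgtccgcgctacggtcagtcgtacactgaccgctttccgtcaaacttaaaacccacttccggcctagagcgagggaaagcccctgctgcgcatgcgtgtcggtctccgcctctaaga
Haus6: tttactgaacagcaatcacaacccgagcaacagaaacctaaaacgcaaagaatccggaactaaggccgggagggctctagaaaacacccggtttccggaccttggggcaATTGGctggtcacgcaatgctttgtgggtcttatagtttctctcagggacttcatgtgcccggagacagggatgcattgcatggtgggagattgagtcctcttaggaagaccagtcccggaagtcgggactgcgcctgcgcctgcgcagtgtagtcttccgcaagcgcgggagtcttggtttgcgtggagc
The motifs were searched on both strands. The letters TTTGAA are those of the cell cycle homology region, an element of genes used in mitosis. The *Cep55* window held it in reverse, 24 bases after the start, and the *Odf2* window in the forward direction, 25 bases after the start. The windows of *Plk4* and *Haus6* did not hold it. The letters CCAAT, bound by the factor NF-Y, stood in reverse 141 bases before the *Haus6* start and in the forward direction 35 bases after the *Odf2* start. The E2F letters (TTTCCCGC, TTTCGCGC, TTTGCCGC or TTTGGCGC) stood in none of the 4 windows shown. Over the 71 windows of the centrosome genes, 26.8% held TTTGAA, 45.1% CCAAT and 5.63% an E2F match. Over all 32851 windows of the table, 17.9% held TTTGAA, 37.4% CCAAT and 2.26% an E2F match. A match describes letters and not a bound site.

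Raw counts summed to between 17712075 and 18500928 in the Mdivi-1 libraries and between 18279626 and 20077326 in the control libraries. The quasi-likelihood test of edgeR was run on the 14259 genes left by a low-count filter. Levels are counts scaled to library size by TMM (CPM), and fold changes are Mdivi-1 over control on the log2 scale. The factors used by TMM were 1.05 and 1.04 in the Mdivi-1 libraries and 1.10 and 0.834 in the control libraries, so control replicate 2 was scaled differently from the rest. All 8 late 2C transcripts listed as markers had counts in every library, with summed levels of 2227 and 3045 CPM in the Mdivi-1 libraries and 1796 and 2631 CPM in the control libraries. Of these 8, 6 were higher in both treated libraries than in either control, where 26.1% of all genes lay above and 23.9% below. *Obox6* was lower (430 and 649 CPM in the Mdivi-1 libraries, 1005 and 1431 CPM in the control libraries), and the median log2 fold change over the list was 1.05. The list holds *Zscan4d* and *Zfp352*, which the study reports as raised by Mdivi-1 at this stage, so the count is no independent result. The 7 listed oocyte transcripts summed to 3420 and 4446 CPM in the Mdivi-1 libraries, above 1477 and 3017 CPM in the control libraries. Most of that sum was *Oosp1*, with 2401 and 3198 CPM in the Mdivi-1 libraries and 956 and 2368 CPM in the control libraries. *Bmp15* was also higher, with 662 and 975 CPM in the Mdivi-1 libraries and 184 and 273 CPM in the control libraries. So was *Gdf9*, with 118 and 88.5 CPM in the Mdivi-1 libraries and 47.6 and 54.8 CPM in the control libraries. *Zp3* was lower, with 149 and 99.2 CPM in the Mdivi-1 libraries and 198 and 269.5 CPM in the control libraries. Of the 7, 3 overlapped between groups. Listed cumulus cell markers summed to at most 5.71 CPM in any library, with *Amh*, *Has2*, *Ptx3* and *Inha* at 0 in all 4. Sperm markers summed to at most 6.07 CPM, with *Tnp2* and *Smcp* at 0. Markers of ciliated and oviduct epithelium summed to 20.2 and 19.8 CPM in the Mdivi-1 libraries and 29.4 and 29.7 CPM in the control libraries, with *Foxj1* and *Mcidas* at 0. *Rsph1* had the highest mean of these, at 9.23 and 6.25 CPM in the Mdivi-1 libraries and 7.01 and 19.1 CPM in the control libraries. Listed blood markers summed to 57.6 and 51.0 CPM in the Mdivi-1 libraries and 61.8 and 63.1 CPM in the control libraries, with *Hbb-bs* and *Hbb-bt* at 0. Most of the blood sum was *Hba-a1*, with 54.8 and 46.8 CPM in the Mdivi-1 libraries and 59.3 and 56.7 CPM in the control libraries. In these bulk libraries, fewer cells of a type and less RNA per cell cannot be told apart.

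Late 2C embryos held RNA of nearly the whole set, although they divide without centrioles. Of the 70 genes, 63 had a count in every library, 47 averaged at least 10 CPM and 6 at least 100 CPM. The sum over the set was 2533 and 2748 CPM in the Mdivi-1 libraries and 2501 and 2616 CPM in the control libraries, so the ranges overlapped. The filter left 67 genes for the test. The others were *Cep112it*, a non-coding gene with 0 counts in every library, and *Cep131* and *Cep295nl*, which had 9 and 10 counts in Mdivi-1 replicate 2 and 0 counts in the other 3 libraries.

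The highest level per length belonged to an augmin subunit. Divided by the exonic length of the gene, *Haus3*, an augmin subunit, ranked first with 82.5 and 89.0 CPM per exonic kb in the Mdivi-1 libraries and 80.5 and 127 in the control libraries. *Cetn2*, a calcium-binding centrin that also serves DNA repair, followed with 46.0 and 46.5 CPM per exonic kb in the Mdivi-1 libraries and 25.7 and 43.4 in the control libraries. *Haus6* was the third, with 24.1 and 27.3 CPM per exonic kb in the Mdivi-1 libraries and 50.3 and 51.3 in the control libraries. In controls *Haus6* thus stood above *Cetn2*, and in treated embryos *Cetn2* stood above *Haus6*. *Haus2* averaged 32.1, *Cep70* 17.9, *Cep55* 17.9, *Haus7* 17.1 and *Plk4* 16.1 CPM per exonic kb over the 4 libraries, values whose libraries overlap between neighbours in the order. Toward the low end, *Cep152*, whose protein is a scaffold that binds PLK4, averaged 0.211 CPM per exonic kb (rank 65 of 70). The γ-tubulin activator gene *Cdk5rap2* averaged 0.360 CPM per exonic kb (rank 59).

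As a set, the centrosome genes differed between the groups about as often as other genes did. At unadjusted p under 0.05, 10 of 67 genes (14.9%) passed, against 15.9% of all genes tested. Of them, 7 were higher in Mdivi-1-treated embryos (10.4%, against 8.27% of all genes) and 3 were lower (4.48%, against 7.64%). The number past an edgeR adjusted p of 0.05 was 0 of 67, as it was 0 of 14259 (0.0%) over all genes, and the smallest adjusted p in the set was 0.146. DESeq2, the tool of the study's methods, called 3 higher (*Cep55*, *Odf2* and *Plk4*, 4.48%, against 3.3% of all genes) and 1 lower (*Haus6*, 1.49%, against 2.8%) at an adjusted p under 0.05. The study also set a minimum fold change, which was not applied here. *Haus6*, with a DESeq2 log2 fold change of -0.999, fell just short of that minimum. Limma-voom called 1 of 67, *Cep55* (1.49%, against 1.42% of all genes). The edgeR likelihood ratio test called 5 of 67, the 4 genes called by DESeq2 and *Cep112* (7.46%, against 6.1% of all genes). The median log2 fold change was 0.23 with quartiles of -0.26 and 0.76, beside 0.03 with quartiles of -0.62 and 0.78 over all genes tested. A positive log2 fold change was found for 42 of 67 genes (62.7%), against 51.3% of all genes. Both Mdivi-1 libraries lay above both controls for 26 genes (38.8%, against 26.1% of all genes) and below both for 12 (17.9%, against 23.9%), and the groups overlapped for 29. Scaling by library totals alone moved the median of all genes tested to 0.14 and that of the set to 0.39, and the share of higher calls over all genes to 62.6%, against 52.0% with TMM.

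**Figure D1:**
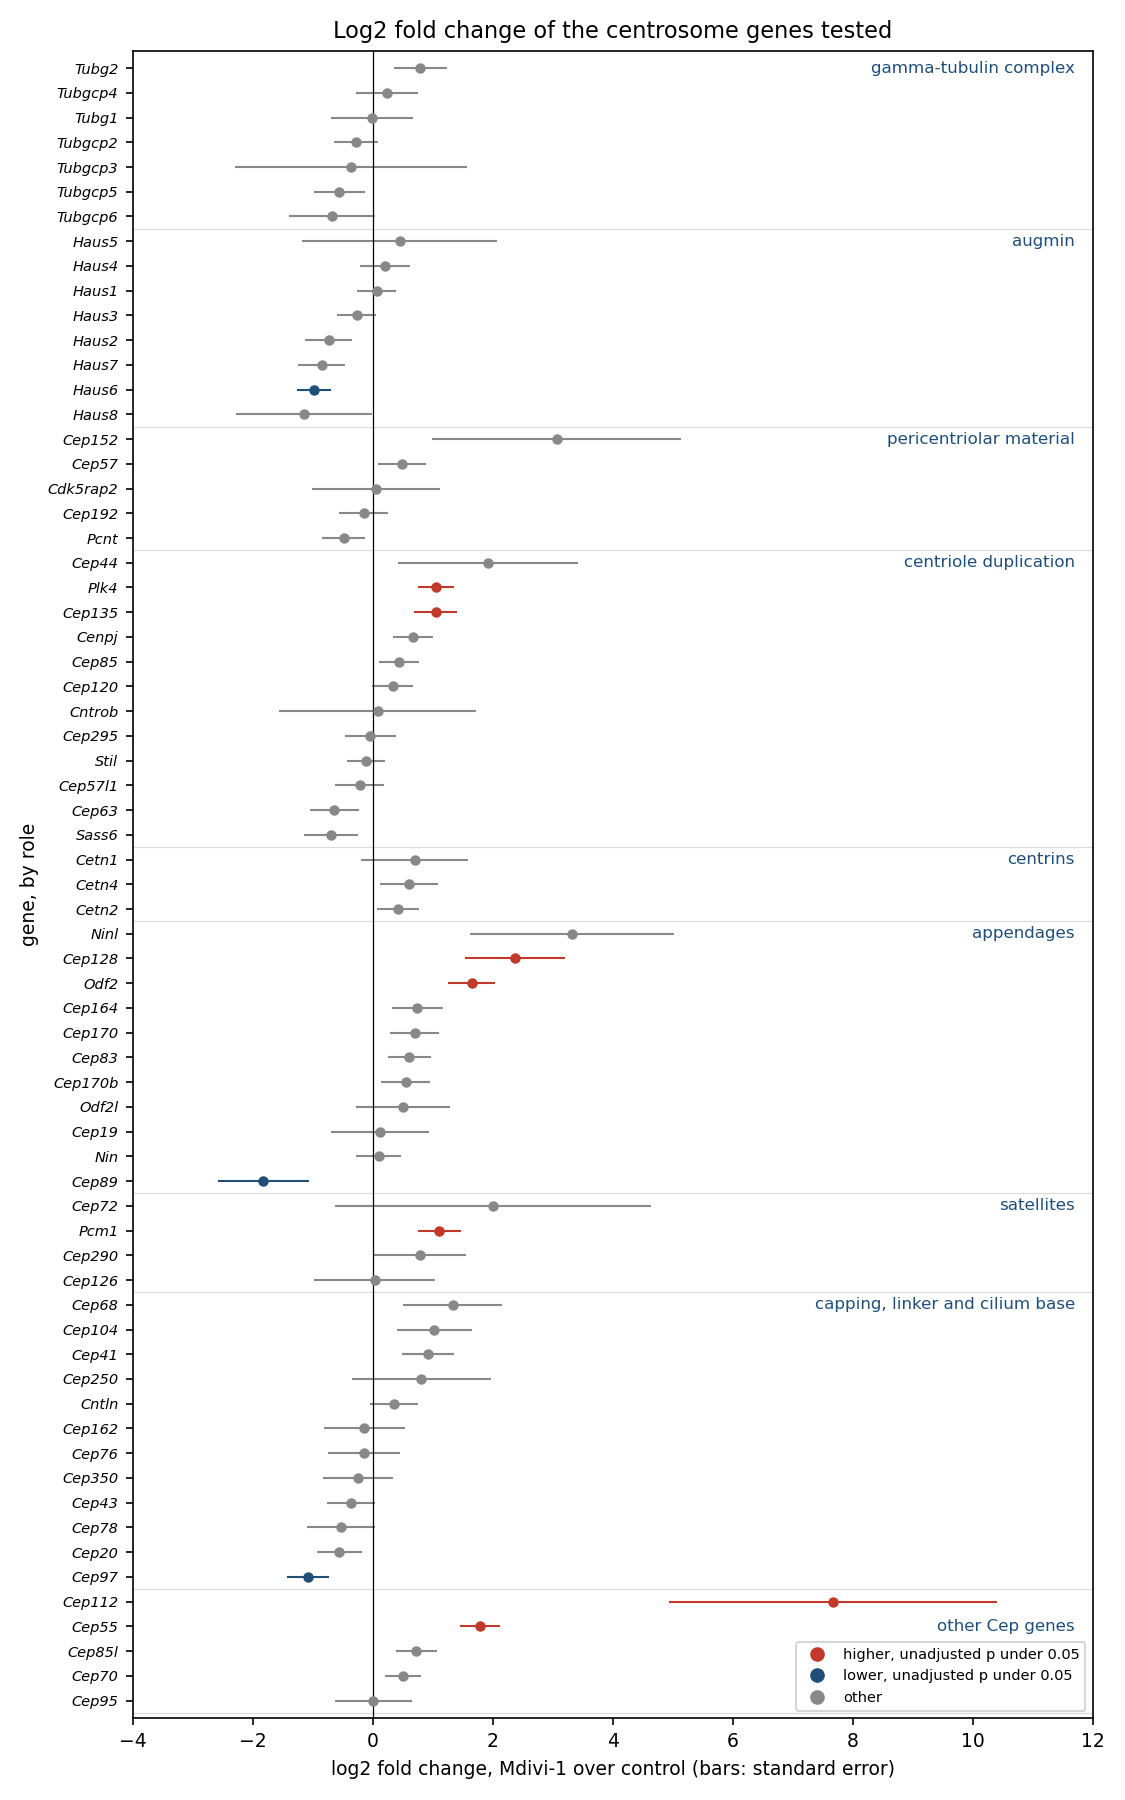
Log2 fold change of each of the 67 genes tested (horizontal axis, Mdivi-1 over control, bars of 1 standard error worked back from the edgeR test), with genes grouped by role down the page, colour showing unadjusted p under 0.05, and a gene of several roles drawn once. Appendage genes lie to the right of 0 except *Cep89*, augmin genes lie mostly to the left, and the far point of *Cep112* rests on controls at 0 counts and has no fixed size.

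Among the genes of centriole duplication, the kinase that starts the process was higher in treated embryos at unadjusted p, and its partner genes *Stil* and *Sass6* did not pass that threshold. *Plk4* had 145 and 154 CPM in the Mdivi-1 libraries and 81.6 and 61.9 CPM in the control libraries. Both treated libraries lay well above both controls. The log2 fold change was 1.06 ± 0.30 (SE, adjusted p = 0.198 by edgeR and adjusted p = 0.0423 by DESeq2), for the gene at chr3:40800019-40816883. *Stil*, whose protein binds and activates PLK4, had 48.7 and 46.9 CPM in the Mdivi-1 libraries and 54.4 and 49.3 CPM in the control libraries. All 4 libraries of *Stil* were close, with a log2 fold change of -0.12 ± 0.31 (SE). *Sass6*, the cartwheel protein gene, had 19.0 and 19.2 CPM in the Mdivi-1 libraries and 21.2 and 40.7 CPM in the control libraries, of which 1 control stood apart. Of the 50-base windows of *Sass6* transcripts, 29.1% also occur in other genes, most of them in an antisense gene, so its counts are uncertain.

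*Cep135*, which links the cartwheel to the centriole wall, had 59.4 and 78.0 CPM in the Mdivi-1 libraries and 40.3 and 26.3 CPM in the control libraries. The groups did not overlap, and the log2 fold change was 1.04 ± 0.36 (SE, adjusted p = 0.240 by edgeR and adjusted p = 0.137 by DESeq2). *Cenpj*, needed for growth of centriolar microtubules, had 72.5 and 52.9 CPM in the Mdivi-1 libraries and 38.4 and 40.3 CPM in the control libraries. Its treated libraries were both higher but apart from each other (edgeR adjusted p = 0.370). *Cep192*, which recruits PLK4 and pericentriolar matrix, overlapped between groups with 77.4 and 116 CPM in the Mdivi-1 libraries and 144 and 70.7 CPM in the control libraries. *Cep152*, a scaffold that binds PLK4, was near the detection limit with 1.45 and 2.92 CPM in the Mdivi-1 libraries and 0.501 and 0 CPM in the control libraries. *Cep63*, the partner of *Cep152*, was lower at 16.5 and 28.5 CPM in the Mdivi-1 libraries, against 34.6 and 35.7 CPM in the control libraries (edgeR adjusted p = 0.501). *Cntrob*, the gene of the daughter centriole protein centrobin, stayed under 4 CPM in every library. Of the 15 duplication genes, 2 passed the unadjusted threshold as higher and 0 as lower, where 8.27% and 7.64% of all genes did, and the median log2 fold change was 0.33.

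The matrix and nucleation genes, which acentriolar organizing centres also use, held 0 genes past the unadjusted threshold, where 15.9% of all genes passed. These lists are too short to set a count of 0 apart from that share. *Pcnt*, the matrix scaffold, had 24.7 and 36.0 CPM in the Mdivi-1 libraries and 44.7 and 40.4 CPM in the control libraries. Both treated libraries were lower, with a log2 fold change of -0.49 ± 0.36 (SE, adjusted p = 0.580 by edgeR). *Cdk5rap2* varied more within groups than between them, at 6.82 and 2.71 CPM in the Mdivi-1 libraries and 1.41 and 7.81 CPM in the control libraries. The 5 pericentriolar matrix genes had a median log2 fold change of 0.05.

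γ-tubulin is encoded by 2 close paralogues. *Tubg1*, the form used in most tissues, had 14.4 and 22.8 CPM in the Mdivi-1 libraries and 30.6 and 6.95 CPM in the control libraries. The controls of *Tubg1* were farther apart than any treated library was from them, and the log2 fold change was -0.02 ± 0.68 (SE). *Tubg2*, known for its expression in brain, had 27.7 and 23.9 CPM in the Mdivi-1 libraries and 18.4 and 11.5 CPM in the control libraries. Both treated libraries were higher, with a log2 fold change of 0.79 ± 0.44 (SE, adjusted p = 0.433 by edgeR). Per exonic kb, *Tubg2* gave 71.4% and 57.5% of γ-tubulin reads in the Mdivi-1 libraries (mean 64.4% ± 9.79, SD, n = 2) and 43.7% and 68.1% in the control libraries (mean 55.9% ± 17.3, SD, n = 2). The shares overlapped between groups, and in 3 of the 4 libraries *Tubg2* gave the larger share. Of the 50-base windows of *Tubg2* transcripts, 14.3% occur in *Tubg1*, so reads lying wholly in such stretches map to more than 1 place and are not counted.

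Of the 5 genes for subunits that hold γ-tubulin in its ring, 0 passed the threshold, where 15.9% of all genes did. *Tubgcp5* had 18.0 and 34.9 CPM in the Mdivi-1 libraries and 36.6 and 41.3 CPM in the control libraries, with a log2 fold change of -0.56 ± 0.42 (SE). *Tubgcp2* overlapped, with 25.8 and 36.3 CPM in the Mdivi-1 libraries and 36.1 and 39.3 CPM in the control libraries. *Tubgcp6* had 3.60 and 6.41 CPM in the Mdivi-1 libraries and 7.10 and 8.99 CPM in the control libraries. Each of these 3 had its lowest value in Mdivi-1 replicate 1. *Tubgcp3* ranged between 0 and 5.96 CPM, and *Tubgcp4* between 9.28 and 17.7 CPM with 23.8% of its windows shared, mostly with *Trp53bp1* on the opposite strand. Over the 7 genes of the complex, 2 log2 fold changes were positive and 5 negative, with a median of -0.28. Summed levels were 110 and 140 CPM in the Mdivi-1 libraries and 144 and 126 CPM in the control libraries, which overlap.

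Augmin held the gene with the highest level per length among those past the unadjusted threshold. *Haus6*, the subunit that reaches the γ-tubulin ring complex through NEDD1, had 155 and 176 CPM in the Mdivi-1 libraries and 325 and 331 CPM in the control libraries. Replicates of both groups were close, and the level was 1.98-fold lower in treated embryos. The log2 fold change was -0.98 ± 0.29 (SE, adjusted p = 0.199 by edgeR and adjusted p = 0.0236 by DESeq2), for the gene at chr4:86578855-86612055. *Haus7* had 16.1 and 18.9 CPM in the Mdivi-1 libraries and 33.6 and 29.8 CPM in the control libraries. It lay in the same direction as *Haus6*, just outside the threshold (log2 fold change -0.86 ± 0.39 SE, adjusted p = 0.333 by edgeR). *Haus2* had 66.7 and 88.0 CPM in the Mdivi-1 libraries and 86.3 and 172 CPM in the control libraries, so that 1 control stood above the other 3 libraries.

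The other augmin subunits did not separate the groups. *Haus3* had 319 and 344 CPM in the Mdivi-1 libraries and 312 and 490 CPM in the control libraries. *Haus1* had 54.5 and 55.5 CPM in the Mdivi-1 libraries, between the control values of 44.8 and 60.4 CPM. *Haus4* had 19.9 and 29.0 CPM in the Mdivi-1 libraries and 22.6 and 19.9 CPM in the control libraries. For *Haus2* and *Haus3* it was control replicate 2 that was highest. *Haus8*, the microtubule-binding subunit, ranged from 1.37 to 18.8 CPM, with both extremes in controls. *Haus5* was under 4 CPM in every library, and 53.1% of its windows occur in other genes, mostly in a gene that overlaps it on the same strand. Over the 8 subunits, 3 log2 fold changes were positive and 5 negative, the median was -0.50, and 1 was lower at unadjusted p, where 7.64% of all genes were. Both Mdivi-1 libraries lay below both controls for 2 of the 8 subunits and above for 0, where 23.9% and 26.1% of all genes did. The groups overlapped for the other 6. Summed augmin levels were 636 and 721 CPM in the Mdivi-1 libraries and 829 and 1122 CPM in the control libraries, without overlap. Without *Haus6* the sums were 481 and 545 CPM in the Mdivi-1 libraries and 503 and 791 CPM in the control libraries, which overlap.

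**Figure D2:**
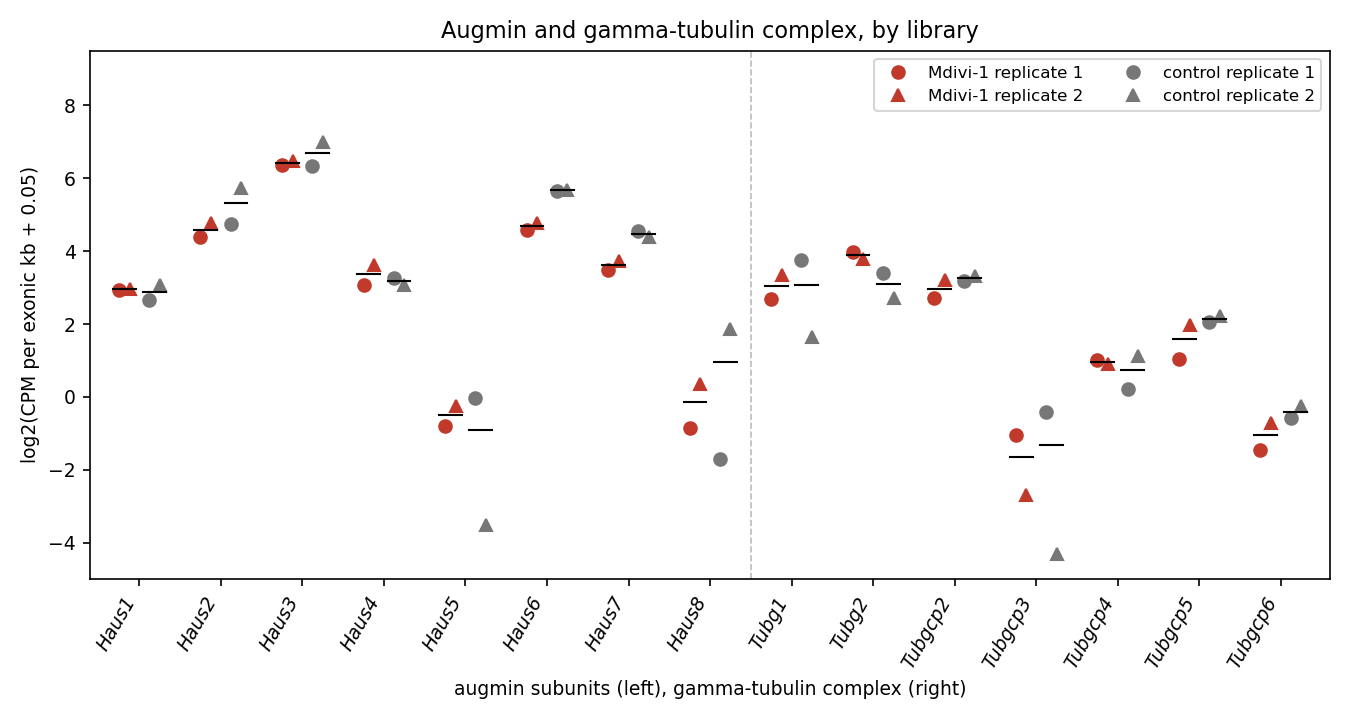
Level of each augmin subunit (left) and γ-tubulin complex gene (right) in each library, as log2 of CPM per exonic kb plus 0.05, with Mdivi-1 libraries in red, control libraries in grey and a bar at each group's mean. *Haus6* and *Haus7* are lower in both treated libraries, and *Haus5*, *Haus8*, *Tubg1* and *Tubgcp3* scatter most between the controls.

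Centrins had higher mean levels in treated embryos, and 0 of 3 passed the unadjusted threshold, where 15.9% of all genes did. *Cetn2* had 75.6 and 76.5 CPM in the Mdivi-1 libraries and 42.4 and 71.5 CPM in the control libraries. *Cetn4*, known from ciliated cells, had 19.3 and 15.2 CPM in the Mdivi-1 libraries and 9.51 and 13.2 CPM in the control libraries. *Cetn1*, known from male germ cells, had 3.33 and 8.50 CPM in the Mdivi-1 libraries and 3.96 and 3.35 CPM in the control libraries. Treated libraries of *Cetn2* and *Cetn4* were both above the controls, by 0.42 and 0.60 on the log2 scale, and those of *Cetn1* overlapped them. No gene in the deposited counts carries the symbol *Cetn3*.

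The appendage genes of the mother centriole had 10 of 11 log2 fold changes positive, with a median of 0.61, beside 51.3% of log2 fold changes positive over all genes. Over the 67 genes of the set tested, 62.7% were positive. So were 4 of 4 satellite, 3 of 3 centrin, 5 of 5 other *Cep*, 9 of 15 duplication and 3 of 5 matrix genes. The count was 5 of 12 for capping, linker and cilium base genes, 3 of 8 for augmin and 2 of 7 for the γ-tubulin complex. These lists are short, and the differences between them were not tested. Of the 11 appendage genes, 2 passed the unadjusted threshold as higher and 1 as lower, where 8.27% and 7.64% of all genes did. *Odf2*, which forms the base of the subdistal appendages and, in sperm, part of the outer dense fibres, had 67.0 and 62.2 CPM in the Mdivi-1 libraries and 26.2 and 14.9 CPM in the control libraries. Treated libraries were close together and far above both controls. The log2 fold change was 1.65 ± 0.39 (SE, adjusted p = 0.162 by edgeR and adjusted p = 0.0110 by DESeq2), for the gene at chr2:29889221-29931746. *Cep128*, another subdistal appendage gene, had 12.5 and 8.29 CPM in the Mdivi-1 libraries and 2.87 and 1.12 CPM in the control libraries. It was low in all libraries, and the log2 fold change of 2.37 had a standard error of 0.83 (edgeR adjusted p = 0.241, DESeq2 adjusted p = 0.109). The exception was *Cep89*, a distal appendage gene, at 2.47 and 10.5 CPM in the Mdivi-1 libraries and 14.7 and 31.4 CPM in the control libraries. Replicates of *Cep89* differed several times within each group, and the log2 fold change was -1.83 ± 0.76 (SE, adjusted p = 0.292 by edgeR and adjusted p = 0.141 by DESeq2).

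The other appendage genes did not pass the threshold. *Cep164*, needed for docking of the cilium to the membrane, had 29.5 and 32.5 CPM in the Mdivi-1 libraries and 22.9 and 14.1 CPM in the control libraries. *Cep83*, which stands at the root of the distal appendages, had 39.9 and 33.8 CPM in the Mdivi-1 libraries and 23.3 and 25.1 CPM in the control libraries. Neither *Cep164* (edgeR adjusted p = 0.436) nor *Cep83* (edgeR adjusted p = 0.462) passed the test, although their groups did not overlap. *Nin*, the microtubule anchor ninein and one of the most abundant genes of the set, had 151 and 143 CPM in the Mdivi-1 libraries, between the control values of 182 and 92.4 CPM. *Ninl* had 2.15 and 2.50 CPM in the Mdivi-1 libraries and 0.319 and 0.131 CPM in the control libraries, a log2 fold change of 3.32 ± 1.70 (SE, adjusted p = 0.387 by edgeR). Groups did not overlap for 9 of the 11 genes, with Mdivi-1 above for 8 and below for *Cep89*, where 26.1% of all genes lay above and 23.9% below. Of the 8 listed ciliated cell markers, 6 were tested, and the groups overlapped for 4 of them with Mdivi-1 below for the other 2. Of the 7 oocyte transcripts, Mdivi-1 lay above for 3 and below for 1. Their part in these values was not tested.

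Of the 4 satellite genes tested, 1 was higher at unadjusted p, and of the 12 capping, linker and cilium base genes, 1 was lower. Over all genes tested, 8.27% were higher and 7.64% lower, and lists this short cannot be set apart from those shares. *Pcm1*, the scaffold of centriolar satellites, had 88.3 and 90.0 CPM in the Mdivi-1 libraries and 52.1 and 30.8 CPM in the control libraries. Its treated libraries were nearly equal and above both controls. The log2 fold change was 1.10 ± 0.36 (SE, adjusted p = 0.217 by edgeR and adjusted p = 0.0851 by DESeq2). *Cep97*, whose protein caps the centriole with CCP110 and holds back cilium growth, had 35.3 and 36.5 CPM in the Mdivi-1 libraries and 59.2 and 93.6 CPM in the control libraries. Treated libraries again agreed closely and lay below both controls, with a log2 fold change of -1.09 ± 0.35 (SE, adjusted p = 0.217 by edgeR and adjusted p = 0.0891 by DESeq2). Its partner gene *Ccp110*, outside the name rule, had 64.8 and 67.4 CPM in the Mdivi-1 libraries and 68.9 and 78.5 CPM in the control libraries, a log2 fold change of -0.16 ± 0.30 (SE). *Cep41*, which takes part in tubulin glutamylation in cilia, had 24.0 and 39.2 CPM in the Mdivi-1 libraries and 14.3 and 19.2 CPM in the control libraries (edgeR adjusted p = 0.357). *Cep20*, a gene of the centriole and cilium base, had 25.1 and 31.7 CPM in the Mdivi-1 libraries and 49.3 and 34.4 CPM in the control libraries (edgeR adjusted p = 0.518). *Cntln*, a linker gene, overlapped between groups at 61.2 and 32.3 CPM in the Mdivi-1 libraries and 38.8 and 34.3 CPM in the control libraries. All 4 satellite genes tested had positive log2 fold changes, but those of *Cep290*, *Cep126* and *Cep72* came with overlapping groups. Of the 12 capping, linker and cilium base genes, 5 log2 fold changes were positive and 7 negative. Over all genes tested, 51.3% were positive.

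The gene with the smallest edgeR p of the set acts at the end of cell division. *Cep55*, which recruits the ESCRT machinery to the midbody for abscission, had 74.4 and 86.6 CPM in the Mdivi-1 libraries and 26.8 and 19.9 CPM in the control libraries. Treated embryos averaged 80.5 ± 8.61 CPM and control embryos 23.3 ± 4.82 CPM (SD, n = 2 each), with no overlap. The log2 fold change was 1.78 ± 0.34 (SE, adjusted p = 0.146 by edgeR and adjusted p = 0.0011 by DESeq2), for the gene at chr19:38055011-38074423, whose promoter is printed above. *Cep85l*, a paralogue of *Cep85*, had 56.4 and 80.0 CPM in the Mdivi-1 libraries and 45.9 and 36.7 CPM in the control libraries, just outside the threshold (edgeR adjusted p = 0.351). *Cep70* had 109 and 93.1 CPM in the Mdivi-1 libraries and 77.5 and 65.0 CPM in the control libraries (edgeR adjusted p = 0.456). *Cep112* had 34 and 17 counts in the Mdivi-1 libraries and 0 counts in both controls. Set against a floor of 3 counts per control library, its level was at least 8.13-fold higher in treated embryos (edgeR adjusted p = 0.253).

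**Figure D3:**
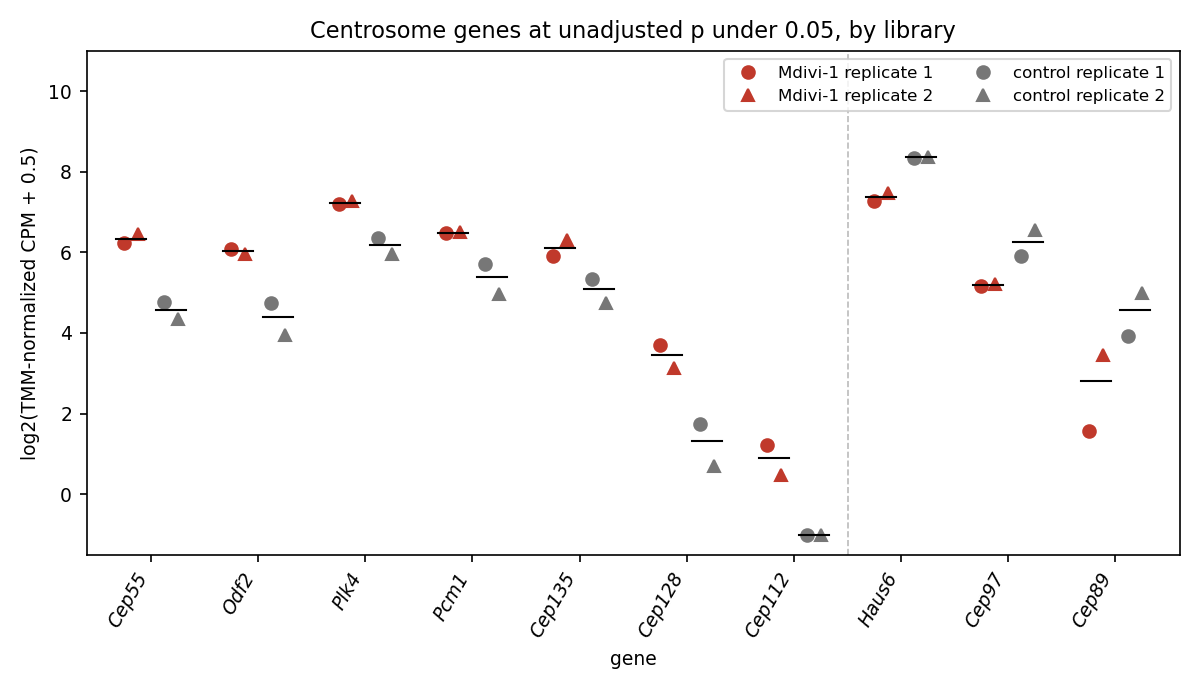
Level of the 10 genes at unadjusted p under 0.05 in each library, as log2 of TMM-normalized CPM plus 0.5, with Mdivi-1 libraries in red left of control libraries in grey and a bar at each group's mean. In all 10 genes the groups do not overlap, and *Haus6*, *Cep97* and *Cep89*, right of the dashed line, are lower in treated embryos.

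Each library was left out in turn, since a group holds only 2. The lone library of an arm was then assumed to vary like the other group. The unadjusted threshold held in all 4 fits for 2 of the 10 genes, *Cep55* and *Odf2*. *Plk4* lost it without Mdivi-1 replicate 2, at a log2 fold change of 0.995. *Haus6* lost it without Mdivi-1 replicate 1 (-0.90) and without Mdivi-1 replicate 2 (-1.10). *Cep97* and *Pcm1* lost it without control replicate 2, at log2 fold changes of -0.75 and 0.75. They also lost it without Mdivi-1 replicate 1 (-1.07 for *Cep97*, 1.12 for *Pcm1*) and without Mdivi-1 replicate 2 (-1.13 for *Cep97*, 1.07 for *Pcm1*). *Cep135* lost it without control replicate 2 (0.74) and when Mdivi-1 replicate 2 was left out (0.81). *Cep128* and *Cep89* lost it without control replicate 2, at 1.83 and -1.20, and without Mdivi-1 replicate 1, at 2.05 and -1.14. *Cep89* also lost it with library totals (-1.65). *Cep112* lost it in all 4 fits and by limma-voom. Without control replicate 1, *Cep112* alone of the 10 genes lost it. That fit left a single control library. It gave a log2 fold change of 3.13 for *Cep68*, a centrosome linker gene, against 1.33 from all libraries. *Cep68* had 13.2 and 15.7 CPM in the Mdivi-1 libraries and 9.83 and 1.64 CPM in the control libraries, with control replicate 2 far below the other 3 libraries. DESeq2 adjusted p over these fits was between 0.00059 and 0.165 for *Cep55*, between 0.00086 and 0.358 for *Odf2*, between 0.0111 and 0.446 for *Plk4* and between 0.0136 and 0.505 for *Haus6*.

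**Figure D4:**
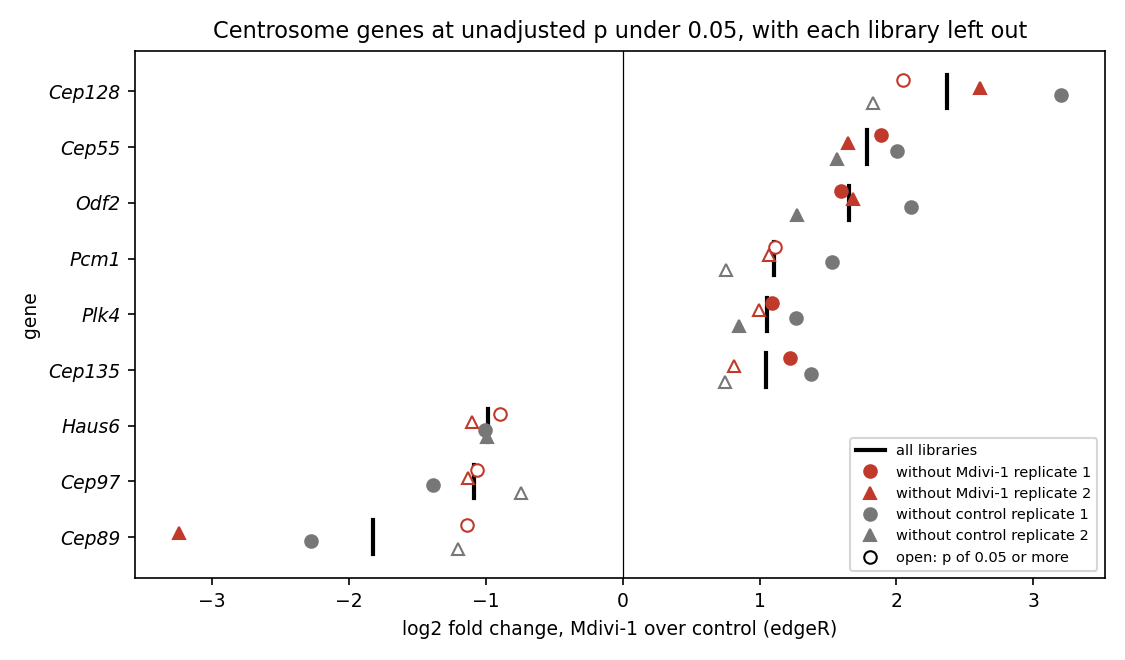
Log2 fold change (horizontal axis, Mdivi-1 over control, edgeR) of 9 genes at unadjusted p under 0.05, with a black bar for all libraries and points for fits without each library, open where p was 0.05 or more. *Cep112*, with controls at 0 counts, is not drawn. Of the 9 genes, *Cep55* and *Odf2* have 4 filled points.

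Outside the name rule, 46 genes of centrosomes, spindle poles and acentriolar organizing centres were listed, and 43 were tested. Of these, 3 were higher and 3 lower at unadjusted p, where 8.27% and 7.64% of all genes were. The median log2 fold change was 0.25, beside 0.03 over all genes, and DESeq2 called 1, *Kif11*. *Kif11*, the kinesin that pushes spindle poles apart, had 121 and 135 CPM in the Mdivi-1 libraries and 265 and 317 CPM in the control libraries. Both treated libraries were below both controls, with a log2 fold change of -1.18 ± 0.29 (SE, adjusted p = 0.170 by edgeR and adjusted p = 0.0060 by DESeq2). *Ckap5*, a microtubule polymerase, had 99.4 and 110 CPM in the Mdivi-1 libraries and 190 and 170 CPM in the control libraries (edgeR adjusted p = 0.251). *Ran*, the GTPase that guides spindle assembly around chromatin, had 250 and 233 CPM in the Mdivi-1 libraries and 383 and 409 CPM in the control libraries (edgeR adjusted p = 0.280). All 3 were lower in both treated libraries than in either control. *Tpx2*, which acts downstream of RAN, had 216 and 249 CPM in the Mdivi-1 libraries and 425 and 312 CPM in the control libraries (edgeR adjusted p = 0.341), and *Aurka*, the kinase that TPX2 activates, overlapped between groups.

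In the other direction, *Rttn*, a centriole assembly gene, had 25.8 and 31.7 CPM in the Mdivi-1 libraries and 12.5 and 5.97 CPM in the control libraries (log2 fold change 1.63 ± 0.51 SE, adjusted p = 0.213 by edgeR). *Camsap2*, which stabilizes free minus ends of microtubules, had 188 and 158 CPM in the Mdivi-1 libraries and 106 and 92.6 CPM in the control libraries (edgeR adjusted p = 0.250). *Nme7*, a subunit of the γ-tubulin ring complex, had 114 and 124 CPM in the Mdivi-1 libraries and 35.5 and 81.2 CPM in the control libraries (edgeR adjusted p = 0.285). All 3 separated the groups. *Sclt1*, a distal appendage gene (edgeR adjusted p = 0.337), and *Poc5*, a gene of the centriole core (edgeR adjusted p = 0.341), were above both controls in both treated libraries without passing the threshold. *Cntrl*, the appendage gene centriolin, was below both controls at 4.13 and 7.19 CPM in the Mdivi-1 libraries, against 11.6 and 17.5 CPM in the control libraries (edgeR adjusted p = 0.332). *Nedd1*, which ties augmin to the γ-tubulin ring complex, had 69.5 and 92.6 CPM in the Mdivi-1 libraries and 56.1 and 54.0 CPM in the control libraries (edgeR adjusted p = 0.431), and so did not follow *Haus6*.

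The spread between replicates was somewhat smaller in the set than over all genes tested, and its part in the share of genes with separated groups was not tested. The median absolute log2 ratio between replicates was 0.40 in the Mdivi-1 libraries and 0.51 in the control libraries for the 67 genes, and 0.51 and 0.63 over all genes tested. The wider spread lay in the controls in both cases. The biological coefficient of variation over all genes was 0.66.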

How the data were processed

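The authors trimmed reads with cutadapt 1.16, mapped them with STAR to mm10 (GENCODE M23) and counted uniquely mapped reads in exons. Raw counts are deposited for 26022 genes, of which 32 have no symbol. The authors also deposited a normalized signal, the count divided by a size factor per library. The deposited log2 fold changes, their Wald score and p-values are from the authors' DESeq2 comparison and were not used.

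Raw counts were filtered by filterByExpr (minimum count 10) of edgeR 4.0.16 in R 4.3.3, scaled by TMM and tested, two-sided, with the quasi-likelihood test and Benjamini-Hochberg adjustment over 14259 genes. Standard errors were worked back from this test. DESeq2 1.42.0 and limma-voom (limma 3.58.1) were alternatives, with the likelihood ratio test, other scalings and filters, the replicate number as a block, and each library left out. The tests were tested on simulated data. Depth was between 17712075 and 20077326 counts. Replicates differed beyond counting error (chi-square over its degrees of freedom 55.6 for Mdivi-1 and 122 for control, scaled by raw totals without TMM). Each library was counted as a replicate, although that spread may be technical.

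Names, coordinates and exonic lengths are from GENCODE M21 on GRCm38, not the release the study names, and 1 of the 70 genes has the same start and end in the table. Levels per exonic kb rest on the M21 lengths. Shared sequence was measured as 50-base transcript windows found in other genes. Counts are not stranded, so reads lying where exons of different genes overlap cannot be assigned, and levels of such genes are uncertain. The genes and lists were chosen with earlier results of these data known. Named were all γ-tubulin complex, augmin and centrin genes and 14 core genes, up to 10 genes in each direction by smallest p, the 5 highest by CPM and by CPM per exonic kb, and up to 5 genes in each direction from the pathway list. *Ccp110*, *Aurka*, *Nedd1*, *Cep164*, *Cep83* and *Cep68* were added after their values were seen.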

Additional observations from a re-analysis of the deposited data

How the results depend on the processing

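The number of genes past an adjusted p of 0.05, 0 by the quasi-likelihood test over all genes, was 819 with no low-count filter, 853 by DESeq2, 202 by limma-voom and 870 by the edgeR likelihood ratio test, and between 0 and 803 with a library left out. For the centrosome genes it was 3, 4, 1 and 5 in the same order, and between 0 and 4. With a library left out, genes at unadjusted p numbered between 658 and 1699 higher and between 550 and 1412 lower over all genes, and between 3 and 9 higher and between 0 and 6 lower in the set. The set's median log2 fold change was 0.39 with library totals and 0.36 by limma-voom, and between 0.27 and 0.54 with a library left out. Set genes with every remaining Mdivi-1 library above every remaining control then numbered between 31 and 36, and those below between 16 and 23. Such counts rise by design when fewer libraries have to be separated, so they cannot be compared with 26 and 12 from all libraries. Of the pathway genes, 5 were higher with no filter and by limma-voom, and between 1 and 6 with a library left out; 1 was lower with library totals, 5 by limma-voom, and between 1 and 5 with a library left out. The difference in *Tubg2* share was 8.56 percentage points, and between -3.64 and 20.8 with a library left out. Apart from the counts of separated genes, the cause of these changes was not tested.

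Replicate numbers did not pair the libraries, since the deviations of same-numbered libraries correlated at 0.0081. With the replicate block, 6 genes of the set were higher, 3 lower and 0 past the adjusted threshold, the median was 0.35, and *Cep112* lost its call.

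Of 635 values of named genes under 12 alternatives, 26 changed sign. None had passed the unadjusted threshold. By limma-voom these were *Cntrob* (-1.16), *Haus8* (0.0038), *Tubg1* (0.18) and *Tubgcp3* (1.46), and with the replicate block *Cntrob* (-1.04), *Tubg1* (0.30) and *Tubgcp3* (1.66). With a library left out, values ranged from -0.77 to 1.73 for *Cdk5rap2*, -0.60 to 0.44 for *Cep192*, -0.16 to 1.21 for *Cetn1*, -0.18 to 0.72 for *Cntln*, -3.53 to 1.01 for *Cntrob*, -0.14 to 0.27 for *Haus1*, -0.57 to 0.066 for *Haus3*, -0.12 to 0.44 for *Haus4*, -0.51 to 4.03 for *Haus5*, -2.05 to 1.71 for *Haus8*, -0.34 to 0.66 for *Nin*, -0.75 to 1.41 for *Tubg1*, -1.75 to 8.36 for *Tubgcp3* and -0.17 to 0.74 for *Tubgcp4*. With 2 libraries a group, a gene near 10 CPM or below rests on few reads, and counting intervals would cover only part of the spread between replicates.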
